A study of Homo sapiens with 24 samples.

Results

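The epidermal growth factor receptor family, its ligands and one of its feedback inhibitors were followed at the RNA level in a pair of established triple-negative breast cancer lines (MDA-MB-231, MDA-MB-436) after agents directed at MDM2. MDM2 is a ubiquitin ligase, an enzyme that marks other proteins for degradation. The 8 genes were chosen by name from the 60675 genes of the count files: the receptors EGFR, ERBB2 and ERBB3, the ligands AREG, EREG, HBEGF and TGFA, and the inhibitor ERRFI1. All 8 matched an Ensembl identifier and all 8 passed the filter on low counts in both lines. Each line gave 4 groups of 3 libraries, 24 libraries in all. Cells expressed a short hairpin RNA (shRNA) labelled as directed at MDM2, and were set against cells with a non-targeting shRNA. Other cells received the MDM2 PROTAC YX-2-30, a bifunctional compound that recruits a ubiquitin ligase to MDM2 protein for its degradation, and were set against cells given its solvent DMSO. All 8 groups were grown in the same serum-containing medium, per the labels' protocols. The comparisons ask how these transcripts differ with agents directed at MDM2, and whether the hairpin and the degrader give the same changes. They also ask whether the lines respond alike. Hairpin sequences, PROTAC dose and exposure time are not given in the labels, and the results rest on 2 lines. The labels do not say whether replicates were separate cultures, so p-values measure only the spread between these libraries.

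Receptors of this family pair up when a ligand binds, and phosphorylate each other inside the cell, which feeds the RAS to ERK cascade and the PI3 kinase pathway. The ligands are made as membrane-bound precursors and are released by sheddases of the ADAM family. EGFR binds amphiregulin (AREG), epiregulin (EREG), heparin-binding EGF-like growth factor (HBEGF) and transforming growth factor alpha (TGFA), ERBB2 has no known ligand and acts as a partner, and ERBB3 binds neuregulins and has a weak kinase. ERRFI1, also called MIG6, binds the kinase domain of active EGFR, blocks it and promotes its breakdown. EGFR is often abundant in triple-negative tumours, which lack the estrogen and progesterone receptors and amplification of ERBB2.

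EREG and AREG lie next to each other on chromosome 4, with 56.4 kb from the end of EREG (chr4:74365143-74388751, + strand) to the start of AREG (chr4:74445134-74455009, + strand). The other genes lie at chr7:55019021-55211628 (EGFR, + strand), chr17:39687914-39730426 (ERBB2, + strand), chr12:56076799-56103505 (ERBB3, + strand), chr5:140332843-140346631 (HBEGF, - strand), chr2:70447280-70554193 (TGFA, - strand) and chr1:8004404-8026308 (ERRFI1, - strand), all in GRCh38. Exons of EGFR share bases with EGFR-AS1 on the other strand, those of ERBB2 with PGAP3 and MIEN1, those of ERRFI1 with AL034417.4, and those of ERBB3 with AC034102.2 on the same strand. The counting was not stated to use strand, so reads of these pairs cannot be told apart.

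The 250 bases before the start site are shown for AREG, EREG, HBEGF and ERRFI1, whose changes or line differences the results turn on, from RefSeq promoter entries (GRCh38.p14), which held 7 of the 8 genes. The windows are chr4:74444886-74445135 (AREG, + strand), chr4:74364895-74365144 (EREG, + strand), chr5:140346604-140346853 (HBEGF, - strand) and chr1:8026310-8026559 (ERRFI1, - strand), each written 5′ to 3′ on the gene's strand. Capitals mark matches, on either strand, to the cyclic AMP response element TGACGTCA, the AP-1 site TGANTCA, the TATA box TATAAA, the SP1 box GGGCGG and the CCAAT box CCAAT.
AREG: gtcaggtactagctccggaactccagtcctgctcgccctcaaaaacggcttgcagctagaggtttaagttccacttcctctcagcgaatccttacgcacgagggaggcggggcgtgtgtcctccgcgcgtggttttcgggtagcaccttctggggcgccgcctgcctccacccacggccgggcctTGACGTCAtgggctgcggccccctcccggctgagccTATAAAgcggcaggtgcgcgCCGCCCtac
EREG: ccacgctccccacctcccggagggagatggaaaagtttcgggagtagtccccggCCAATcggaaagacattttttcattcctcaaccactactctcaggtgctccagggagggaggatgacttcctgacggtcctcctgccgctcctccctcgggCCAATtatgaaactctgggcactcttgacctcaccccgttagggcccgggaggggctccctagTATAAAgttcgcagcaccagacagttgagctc
HBEGF: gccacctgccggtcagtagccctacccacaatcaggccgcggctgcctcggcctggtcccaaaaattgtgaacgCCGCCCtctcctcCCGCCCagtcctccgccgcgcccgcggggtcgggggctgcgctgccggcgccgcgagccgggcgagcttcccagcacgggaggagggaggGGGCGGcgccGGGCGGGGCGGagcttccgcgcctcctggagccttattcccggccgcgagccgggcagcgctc
ERRFI1: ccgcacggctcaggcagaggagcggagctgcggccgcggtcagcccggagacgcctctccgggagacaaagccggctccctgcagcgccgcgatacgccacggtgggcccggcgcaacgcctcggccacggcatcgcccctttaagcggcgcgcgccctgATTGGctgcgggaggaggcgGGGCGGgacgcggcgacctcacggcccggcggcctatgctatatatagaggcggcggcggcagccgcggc
The window of AREG held TGACGTCA from 65 to 58 bases before the start, a motif found in 1.65% of 35116 promoters, a TATAAA from 29 to 24 bases before it and 1 SP1 box. That of its neighbour EREG held TATAAA from 32 to 27 bases before the start, found in 10.7% of promoters, and 2 CCAAT boxes, found in 32.0%. The window of HBEGF held 5 SP1 boxes, 2 of which share a base. That of ERRFI1 held 1 SP1 box and 1 CCAAT box on the other strand. SP1 boxes were in 42.6% of promoters. TGANTCA was in 6.57% of promoters and in none of these 4 windows. GC content was 65.2% for AREG, 58% for EREG, 76.4% for HBEGF and 75.2% for ERRFI1, against a median of 58% over all promoters. A match is a description of the letters, not a site in use.

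Library totals ran from 33.4 to 174.7 M counts, with a median of 64 M (M, mega). MDM2 RNA was 24.8, 23.8 and 30.9 CPM (counts scaled to a common library size of 1 M, on 1 scale for all libraries) in the MDA-MB-231 libraries labelled MDM2 shRNA, against 19.97, 22.9 and 11.5 CPM in non-targeting libraries. In MDA-MB-436 it was 14.7, 28.04 and 26.8 CPM under the MDM2 shRNA label, against 21.5, 29.9 and 24.3 CPM. No fall of the targeted transcript was detected (log2 0.55, adjusted p = 0.137, and -0.11, adjusted p = 0.78, in edgeR's quasi-likelihood test), and directions given for these libraries rest on their labels. In MDA-MB-231 every library labelled MDM2 shRNA stood above every non-targeting one, opposite to a knockdown (edgeR unadjusted p = 0.0438). A PROTAC acts on the protein, so MDM2 RNA is no check of it. It was 20.4, 23.4 and 24.2 CPM in MDA-MB-231 PROTAC libraries, against 17.0, 24.4 and 15.2 CPM with DMSO (log2 0.26, edgeR adjusted p = 0.513), and 22.8, 25.5 and 20.6 CPM in MDA-MB-436 PROTAC libraries, against 40.0, 29.4 and 35.5 CPM with DMSO. The MDA-MB-436 groups did not overlap and the difference missed the threshold (log2 -0.61, edgeR adjusted p = 0.0573). Across 10497 genes, libraries labelled MDM2 shRNA correlated with PROTAC libraries of the same line at r of 0.977 to 0.983 in MDA-MB-231 and 0.953 to 0.981 in MDA-MB-436, against 0.978 to 0.983 and 0.951 to 0.983 within groups. DMSO against non-targeting libraries gave 0 genes past an adjusted p of 0.05 in MDA-MB-231, where 903 had an unadjusted p under 0.05, and 4 in MDA-MB-436, where 2579 did. PROTAC against MDM2 shRNA libraries gave 3 and 1 such genes. Separate experiments for the 2 agents are not stated in the labels, so a call with both agents is not counted as independent support. Replicate pairs of MDA-MB-436 PROTAC libraries stood furthest apart, at a chi-square per gene of 78.7 to 100, against 31.1 to 59.2 in the other 7 groups. Treated and control libraries of a line stood further apart, at r of 0.957 to 0.961 and 0.911 to 0.934.

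Markers of the labelled cell type and of other cells were checked in all 24 libraries. The mesenchymal-like list, 6 of 6 genes detected in every library, summed to 6060 to 6300 CPM in MDA-MB-231 libraries labelled MDM2 shRNA, against 9210 to 10800 CPM in non-targeting libraries, and to 5990 to 6310 CPM with the PROTAC, against 9060 to 9250 CPM with DMSO. In MDA-MB-436 it summed to 1960 to 1990 CPM against 2830 to 3110 CPM, and to 1880 to 1990 CPM against 3030 to 3150 CPM. The sum was lower in every treated library than in any control of its line. Its largest part in MDA-MB-231 was VIM (2910 CPM against 5200 CPM with the hairpin, and 2890 CPM against 4680 CPM with the PROTAC). AXL and MSN were also lower in that line. CD44 (458 CPM against 487 CPM, and 451 CPM against 479 CPM), CAV1 and CAV2 changed less there. Luminal genes (7, of which ESR1 and PGR never exceeded 0.437 and 0.517 CPM) did not move as one in MDA-MB-436. Their sum there was 521 to 584 CPM under the MDM2 shRNA label against 972 to 1150 CPM. With the PROTAC it was 422 to 561 CPM against 833 to 895 CPM. Most of the sum was KRT8 (280 CPM against 577 CPM, and 258 CPM against 479 CPM) and KRT18, which was also lower. GATA3 was higher there (4.23 CPM against 1.12 CPM, and 4.41 CPM against 0.833 CPM). EPCAM was higher too (6.23 CPM against 4.21 CPM, and 5.92 CPM against 3.88 CPM), and ranges of FOXA1 overlapped. In MDA-MB-231 the luminal sums were 569 to 601 CPM against 570 to 630 CPM and 574 to 627 CPM against 557 to 595 CPM, with overlapping ranges. FOXA1 was higher in that line with no overlap (7.4 CPM against 4.52 CPM, and 7.23 CPM against 4.54 CPM). KRT18 was higher with the PROTAC only (244 CPM against 218 CPM), and ranges of KRT8, GATA3 and EPCAM overlapped with both agents. Fibroblast genes (5, with DCN at 0 in all 24 libraries) summed to 38.3 to 40.1 CPM against 18.7 to 21.4 CPM with the hairpin and 35.4 to 40.7 CPM against 18.7 to 23.0 CPM with the PROTAC in MDA-MB-231, most of it COL1A1. In MDA-MB-436 they summed to 7.91 to 8.82 CPM against 5.29 to 5.97 CPM, and to 7.72 to 10.2 CPM against 4.68 to 6.94 CPM. Leukocyte genes (6, with MS4A1 at 0 in all libraries and CD3E at most 0.0489 CPM) did not move as one in MDA-MB-436. They summed there to 24.4 to 29.2 CPM against 9.76 to 16.7 CPM and 23.9 to 30.0 CPM against 12.3 to 13.9 CPM. ITGAM was higher (21.1 CPM against 2.13 CPM, and 19.5 CPM against 2.1 CPM). CD14 was lower (5.76 CPM against 11.8 CPM, and 6.46 CPM against 10.9 CPM). The MDA-MB-231 sums were 4.24 to 5.63 CPM against 5.56 to 6.52 CPM and 4.3 to 4.99 CPM against 5.34 to 6.8 CPM. Endothelial genes (4, with CDH5 at 0 in 19 libraries) summed to 9.13 to 11.3 CPM against 8.63 to 9.99 CPM and 8.15 to 11.2 CPM against 8.51 to 10.3 CPM in MDA-MB-231, and to 3.89 to 4.39 CPM against 6.14 to 6.99 CPM and 2.39 to 5.16 CPM against 6.09 to 9.23 CPM in MDA-MB-436. The part of these shifts in the results on the receptor genes was not tested. In bulk RNA, fewer cells of a kind and less RNA per cell cannot be told apart.

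In control libraries the lines differed in all 8 genes, with the widest gaps in AREG and ERRFI1. MDA-MB-436 held far less amphiregulin, HBEGF, TGFA and ERRFI1 RNA than MDA-MB-231, and more epiregulin. Over the 6 control libraries of each line, AREG averaged 2.88 ± 0.437 CPM in MDA-MB-436 and 45.65 ± 2.87 CPM in MDA-MB-231, 15.8-fold lower (SD, n = 6 each, log2 -3.98 ± 0.12 SE). Its neighbour EREG went the other way, with 44.0 ± 5.71 CPM in MDA-MB-436 and 11 ± 0.983 CPM in MDA-MB-231, 3.99-fold higher. ERRFI1, the inhibitor of EGFR, averaged 52.7 ± 3.08 CPM in MDA-MB-436 and 607 ± 13.6 CPM in MDA-MB-231, 11.5-fold lower. No control library of one line reached the range of the other for these 3 genes. HBEGF was 4.36-fold lower in MDA-MB-436 (22.4 ± 2.07 CPM, against 97.5 ± 2.65 CPM in MDA-MB-231), and TGFA was 4.37-fold lower (12.45 ± 0.951 CPM, against 54.4 ± 2.66 CPM). Of the receptors, EGFR averaged 261 ± 54.0 CPM in MDA-MB-436 and 676 ± 48.2 CPM in MDA-MB-231, 2.63-fold lower. ERBB3 was 2.87-fold lower at 2.48 ± 0.298 CPM, against 7.15 ± 0.98 CPM, and ERBB2 1.29-fold lower at 55.4 ± 5.41 CPM, against 71.3 ± 1.70 CPM. All 8 passed the threshold (7 lower, 1 higher, edgeR adjusted p at most 1.18e-05), where 66.8% of 24719 genes did (35.9% higher, 30.9% lower), and line and the handling of that line cannot be told apart. Ranked by mean over the 8 groups, EGFR ran 677 CPM (MDA-MB-231 DMSO), 674 CPM (its non-targeting shRNA), 534 CPM (its PROTAC), 476 CPM (its MDM2 shRNA), then 307, 215, 210 and 203 CPM in MDA-MB-436 with DMSO, non-targeting shRNA, MDM2 shRNA and PROTAC. Neighbours in that order overlapped within the first pair, within the second and among the last 3 groups. For each of the 8 genes, all 4 groups of one line stood above all 4 of the other, with no overlap at the boundary.

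Per kilobase of exon, ERRFI1 and EGFR were the most abundant of the 8 in MDA-MB-231 controls, at 143 ± 2.89 and 53.8 ± 5.5 CPM per kb with the non-targeting shRNA. HBEGF (32.8 CPM per kb) and AREG (27.1 CPM per kb) followed, ahead of TGFA (10.8), ERBB2 (6.96), EREG (1.81) and ERBB3 (0.696 CPM per kb). In MDA-MB-436 with the non-targeting shRNA, EGFR led at 17.1 ± 1.38 CPM per kb and ERRFI1 came after it at 12.2 ± 0.85 CPM per kb. HBEGF (7.87), EREG (6.92), ERBB2 (5.55), TGFA (2.57), AREG (1.81) and ERBB3 (0.254 CPM per kb) were below them. With DMSO the order of the MDA-MB-231 genes was the same, but EREG (8.47) stood above HBEGF (6.95 CPM per kb) in MDA-MB-436. The ligand with the lowest level per kb was EREG in MDA-MB-231 and AREG in MDA-MB-436 with either control.

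**Figure D1:**
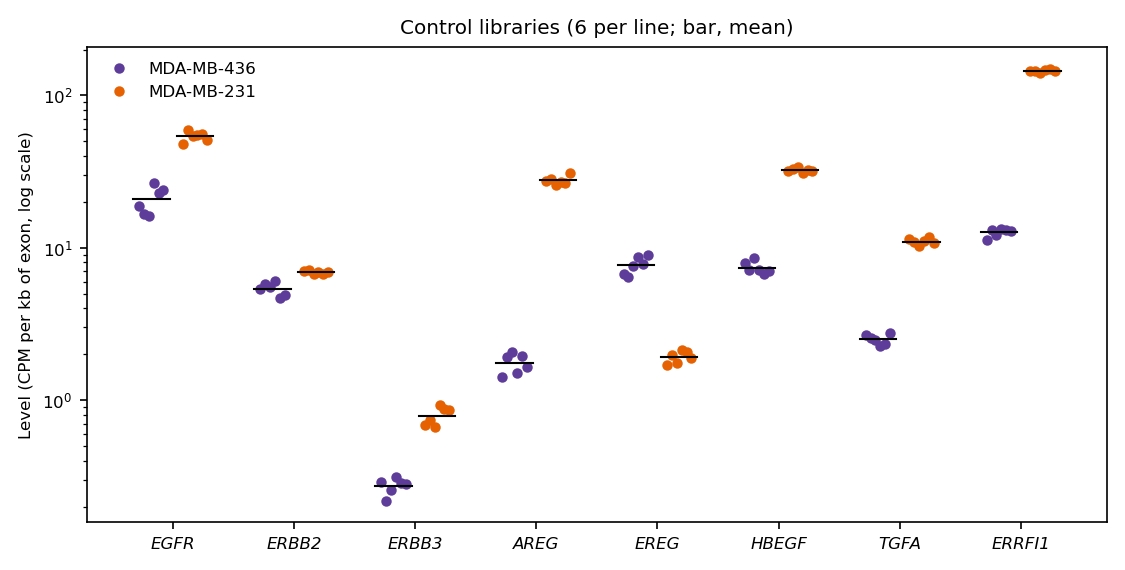
Level per kilobase of exon (CPM per kb, log axis) of the 8 genes in the 6 control libraries of MDA-MB-436 (purple, left of each pair) and of MDA-MB-231 (orange, right), with a bar at the mean. EREG is the only gene whose MDA-MB-436 points lie above those of MDA-MB-231, and AREG and ERRFI1 are the furthest apart, 15.8-fold and 11.5-fold lower in MDA-MB-436.

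MDA-MB-231 libraries with either agent held more amphiregulin and HBEGF RNA and less ERRFI1 and EGFR RNA. AREG was 1.76-fold and 1.75-fold higher, ERRFI1 1.55-fold and 1.56-fold lower. ERBB3 was higher with both, ERBB2 was higher with the hairpin, and EREG and TGFA did not pass the test with either. With the hairpin label, 4 of 8 genes rose and 2 fell, where 11.1% of 20675 genes rose and 11.6% fell, 22.7% in all. With the PROTAC, 3 rose and 2 fell, where 11.1% rose and 11.5% fell, 22.6% in all. The groups of 6 genes did not overlap with either agent, 4 higher and 2 lower, where 39% of genes did not with the hairpin (19.7% higher, 19.3% lower) and 39.1% with the PROTAC (19.2% higher, 19.9% lower). The median log2 change of the 8 genes was 0.17 with the hairpin and 0.02 with the PROTAC, against 0.01 and -0.01 over all genes tested. On library totals alone, without TMM (edgeR's trimmed-mean adjustment of library sizes), 68% and 65.6% of called genes were higher, in place of 48.8% and 49.1%.

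AREG RNA was 83.0, 71.4 and 81.4 CPM in MDA-MB-231 libraries labelled MDM2 shRNA, against 45.2, 46.3 and 42.7 CPM in non-targeting libraries. PROTAC libraries held 82.5, 82.6 and 80.0 CPM, against 44.8, 44.0 and 51.0 CPM with DMSO. The 6 treated libraries all lay above the 6 controls, with no overlap (log2 0.81 ± 0.0725 SE and edgeR adjusted p of 1.6e-05 and 1.63e-05). HBEGF, a ligand that also binds ERBB4 and heparan sulfate, was 128, 122 and 127 CPM under the MDM2 shRNA label, against 96.2, 98.8 and 101.6 CPM with the non-targeting shRNA. In PROTAC libraries it was 125, 127.5 and 127 CPM, against 93.7, 97.6 and 96.9 CPM with DMSO. Treated and control libraries were again apart, by 1.27-fold and 1.31-fold (edgeR adjusted p of 9.33e-05 and 3.68e-05). These ligand changes passed the threshold in all 16 alternatives run for each.

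The other EGFR ligands did not pass the test in MDA-MB-231. TGFA was 57.5, 52.3 and 50.9 CPM in MDA-MB-231 labelled MDM2 shRNA, against 56.3, 54.0 and 50.5 CPM with the non-targeting shRNA, a log2 difference with a 95% interval of -0.15 to 0.15. Under the PROTAC it was 56.6, 50.6 and 53.1 CPM, against 54.8, 58.1 and 53.0 CPM, with an interval of -0.20 to 0.10. EREG was 10.7, 12.5 and 11.5 CPM under the hairpin label, against 9.69, 11.4 and 10.1 CPM, and 12.2, 12.2 and 10.3 CPM with the PROTAC, against 12.1, 11.9 and 10.8 CPM with DMSO. Treated and control ranges of both ligands overlapped, and the intervals for EREG were -0.07 to 0.39 and -0.24 to 0.22.

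ERRFI1 was 389.5, 382 and 392 CPM in MDA-MB-231 labelled MDM2 shRNA, against 605.5, 607 and 586 CPM with the non-targeting shRNA. PROTAC libraries held 401, 391 and 393 CPM, against 615, 627 and 602 CPM with DMSO. The groups stood far apart with little spread within them, and the falls of 0.63 and 0.64 on the log2 scale (SE 0.0302 for both) had edgeR adjusted p of 1.94e-07 and 1.9e-07. EGFR was 501, 393 and 534 CPM under the hairpin label, against 604, 742 and 677 CPM, 1.42-fold lower (edgeR adjusted p = 0.00567). With the PROTAC it was 553, 545 and 502 CPM, against 689, 703 and 641 CPM with DMSO, 1.27-fold lower. No treated library reached the controls. The PROTAC fall of EGFR passed only narrowly (edgeR adjusted p = 0.0367), and leaving out DMSO replicate 1 or 2 or PROTAC replicate 1, 2 or 3 ended the call, at adjusted p of 0.0907, 0.0892, 0.0675, 0.0762 and 0.118.

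ERBB3, the neuregulin receptor, was low in MDA-MB-231 but rose. It was 11.1, 9.27 and 8.88 CPM in libraries labelled MDM2 shRNA, against 6.22, 6.66 and 6.01 CPM with the non-targeting shRNA, 1.55-fold higher (edgeR adjusted p = 0.000934). PROTAC libraries held 11.02, 10.04 and 10.6 CPM, against 8.37, 7.89 and 7.74 CPM with DMSO, 1.32-fold higher (edgeR adjusted p = 0.0137). Groups did not overlap, and the control sets themselves were apart, DMSO above non-targeting by 0.35 on the log2 scale (unadjusted p = 0.00525, edgeR adjusted p = 1). The PROTAC call ended at adjusted p of 0.0519, 0.055 and 0.0526 without DMSO replicate 2, DMSO replicate 3 or PROTAC replicate 1. ERBB2 was 74.6, 90.2 and 81.4 CPM under the hairpin label, against 72.7, 73.5 and 69.2 CPM, 1.14-fold higher. This call was weak (edgeR adjusted p = 0.0465) and ended at adjusted p of 0.115, 0.0963, 0.183, 0.146 and 0.0925 without non-targeting replicate 1, 2 or 3 or MDM2 shRNA replicate 2 or 3. With the PROTAC, ERBB2 was 72.9, 73.7 and 74.5 CPM, against 71.5, 69.5 and 71.1 CPM, a log2 difference of 0.06 with a 95% interval of -0.08 to 0.19.

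**Figure D2:**
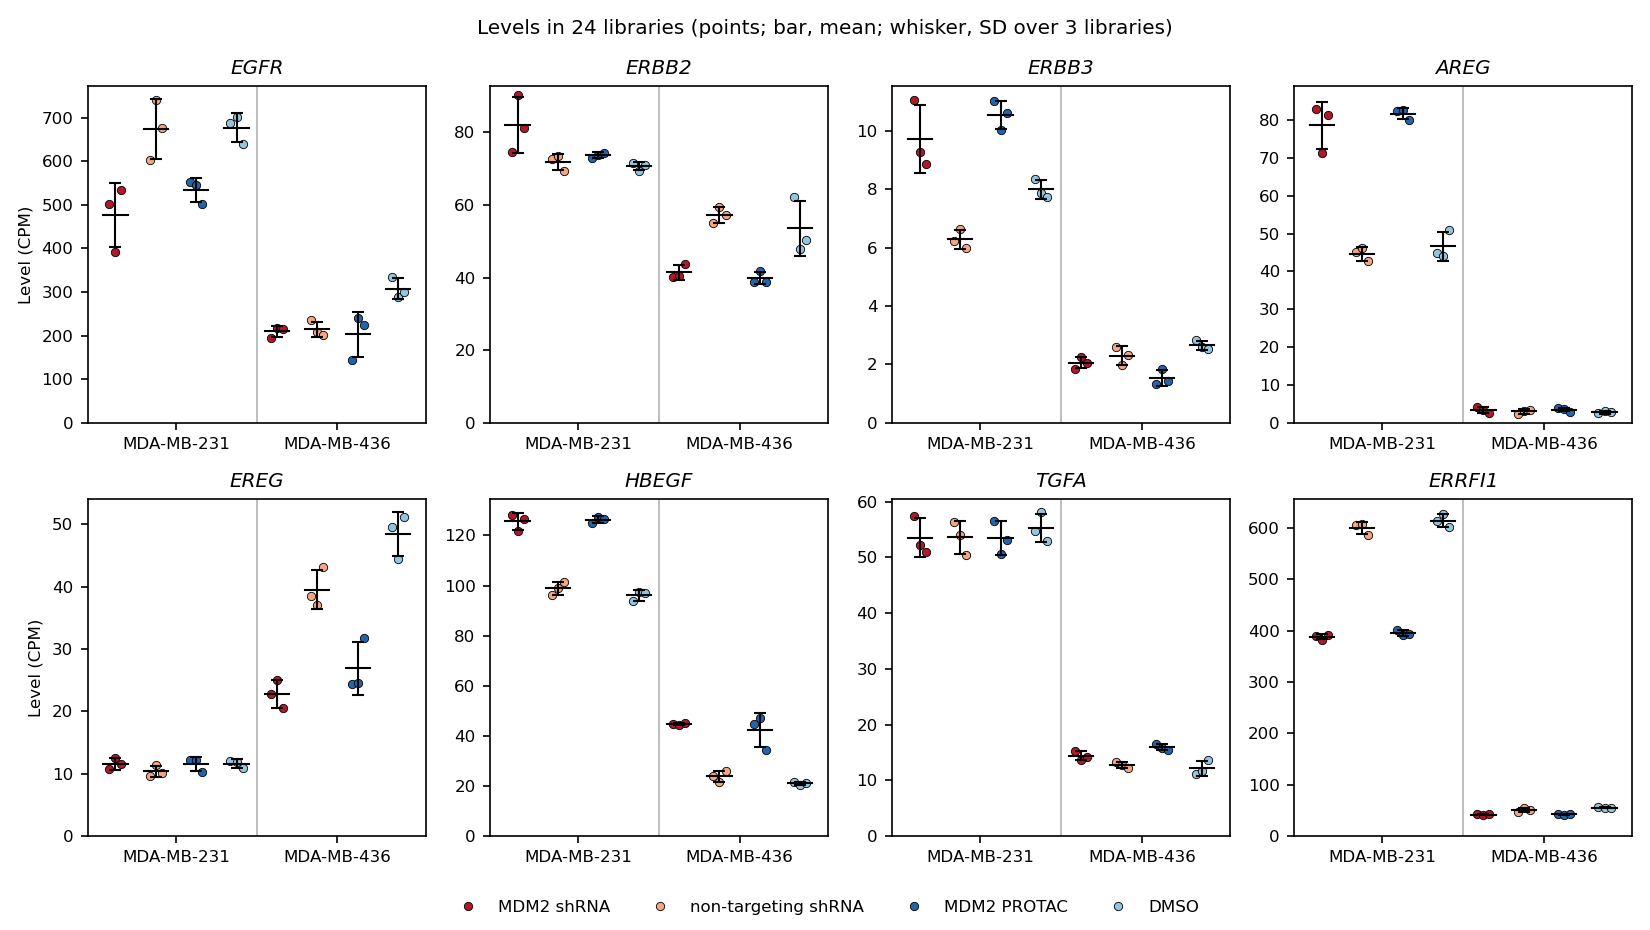
Level (CPM, axes from 0) of each gene in all 24 libraries, with MDA-MB-231 left and MDA-MB-436 right of the grey line in each panel. Points are libraries, in the order MDM2 shRNA (dark red), non-targeting shRNA (light orange), MDM2 PROTAC (dark blue) and DMSO (light blue), and bars and whiskers give the mean and SD of 3. AREG stays between 71.4 and 83.0 CPM in the treated MDA-MB-231 libraries and between 42.7 and 51.0 CPM in their controls, and never exceeds 4.04 CPM in MDA-MB-436.

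In MDA-MB-436, HBEGF rose with both agents, 1.90-fold with the hairpin label and 2.0-fold with the PROTAC, while EREG, with HBEGF the most abundant ligand per kilobase in this line, fell 1.71-fold and 1.80-fold. ERRFI1 and ERBB2 fell with both agents. EGFR and ERBB3 fell and TGFA rose with the PROTAC, and AREG did not pass the test with either agent. With the hairpin label 1 of 8 genes rose and 3 fell, where 16% of 22663 genes rose and 14.4% fell, 30.4% in all. With the PROTAC 2 rose and 5 fell, where 17.3% rose and 15.1% fell, 32.4% in all. With the 6 libraries of that comparison alone, EGFR and TGFA missed the threshold (edgeR adjusted p of 0.0568 and 0.0586) and 5 of 8 passed. The groups of 5 genes did not overlap with the hairpin (2 higher, 3 lower), where 51.3% of genes did not (26.1% higher, 25.2% lower). With the PROTAC those of 7 did not (2 higher, 5 lower), where 41.6% did not (21.3% higher, 20.3% lower). The median log2 change of the 8 genes was -0.08 and -0.41, against 0.04 over all genes in both comparisons. Without TMM scaling, 72.8% and 70.9% of called genes were higher here, in place of 52.5% and 53.4%.

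HBEGF was 44.8, 44.1 and 44.9 CPM in MDA-MB-436 libraries labelled MDM2 shRNA, against 24.03, 21.5 and 25.8 CPM in non-targeting libraries. With the PROTAC it was 44.8, 47.2 and 34.5 CPM, against 21.5, 20.3 and 21.2 CPM with DMSO. Every treated library lay above every control (log2 0.93 ± 0.0977 SE and 1.00 ± 0.0981 SE, edgeR adjusted p of 3.05e-05 and 1.64e-05). EREG was 22.8, 25.04 and 20.6 CPM under the hairpin label, against 38.5, 37.0 and 43.1 CPM, and 24.4, 24.6 and 31.8 CPM with the PROTAC, against 49.6, 44.4 and 51.2 CPM with DMSO. All treated libraries were below all controls (log2 -0.78 ± 0.131 SE and -0.85 ± 0.131 SE, edgeR adjusted p of 0.000852 and 0.000434). HBEGF and EREG passed in all 16 alternatives for each agent.

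AREG was low in MDA-MB-436. It was 4.04, 3.44 and 2.45 CPM in libraries labelled MDM2 shRNA, against 2.34, 3.17 and 3.42 CPM with the non-targeting shRNA, and 3.83, 3.63 and 2.92 CPM with the PROTAC, against 2.47, 3.19 and 2.71 CPM with DMSO. The ranges overlapped, the 95% intervals of the log2 change ran from -0.29 to 0.63 and from -0.16 to 0.77, and each library held 113 to 543 counts. TGFA was 15.3, 13.7 and 14.2 CPM under the hairpin label, against 13.2, 12.7 and 12.3 CPM, a log2 change of 0.19 that did not pass (edgeR adjusted p = 0.2). PROTAC libraries held 16.5, 15.8 and 15.4 CPM, against 11.2, 11.6 and 13.7 CPM with DMSO, 1.3-fold higher (edgeR adjusted p = 0.014). Groups did not overlap with either agent. Without DMSO replicate 1 the PROTAC call of TGFA ended, at an edgeR adjusted p of 0.0562.

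ERRFI1 was 42.3, 39.8 and 42.0 CPM in MDA-MB-436 labelled MDM2 shRNA, against 47.2, 54.2 and 51.2 CPM with the non-targeting shRNA, 1.22-fold lower. With the PROTAC it was 41.9, 41.0 and 43.1 CPM, against 55.6, 54.5 and 53.5 CPM with DMSO, 1.3-fold lower. Treated libraries were all below controls (edgeR adjusted p of 0.0143 and 0.00232), and the hairpin call ended without non-targeting replicate 2 or MDM2 shRNA replicate 2, at adjusted p of 0.075 and 0.0561. ERBB2 was 40.1, 40.5 and 43.8 CPM under the hairpin label, against 55.1, 59.4 and 57.2 CPM, 1.36-fold lower. With the PROTAC it was 38.9, 41.7 and 38.8 CPM, against 62.2, 48.0 and 50.4 CPM with DMSO, 1.35-fold lower. The groups did not overlap (edgeR adjusted p of 0.00448 and 0.00537). On library totals alone, without TMM scaling, the median of all genes stood at 0.22 and 0.21 in place of 0.04, and ERBB2 and ERRFI1 missed the threshold with both agents, at adjusted p of 0.0539 and 0.0549 for ERBB2 and 0.372 and 0.0567 for ERRFI1. The log2 falls were then 0.27 and 0.27 for ERBB2 in place of 0.45 and 0.43, and 0.10 and 0.21 for ERRFI1 in place of 0.28 and 0.38.

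EGFR was 195, 218 and 216 CPM in MDA-MB-436 libraries labelled MDM2 shRNA, against 235, 208 and 202 CPM with the non-targeting shRNA. Those ranges overlapped, and the log2 change of -0.02 had a 95% interval of -0.37 to 0.33, while on library totals alone it was 0.16. With the PROTAC EGFR was 145, 241 and 223 CPM, against 334, 287 and 301 CPM with DMSO, 1.52-fold lower (edgeR adjusted p = 0.0134). The 3 PROTAC libraries lay below the DMSO libraries, but spread widely around 203 ± 51.1 CPM. The DMSO libraries also exceeded the non-targeting ones, by 0.55 on the log2 scale (unadjusted p = 0.00564, edgeR adjusted p = 0.36), and without DMSO replicate 1 the PROTAC call of EGFR ended at adjusted p = 0.0508. ERBB3 was 1.86, 2.24 and 2.06 CPM under the hairpin label, against 2.60, 1.97 and 2.33 CPM, and the ranges overlapped. In PROTAC libraries it was 1.33, 1.84 and 1.42 CPM, against 2.84, 2.58 and 2.54 CPM with DMSO, 1.74-fold lower with no overlap (edgeR adjusted p = 0.00625), on 55 to 223 counts per PROTAC library.

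**Figure D3:**
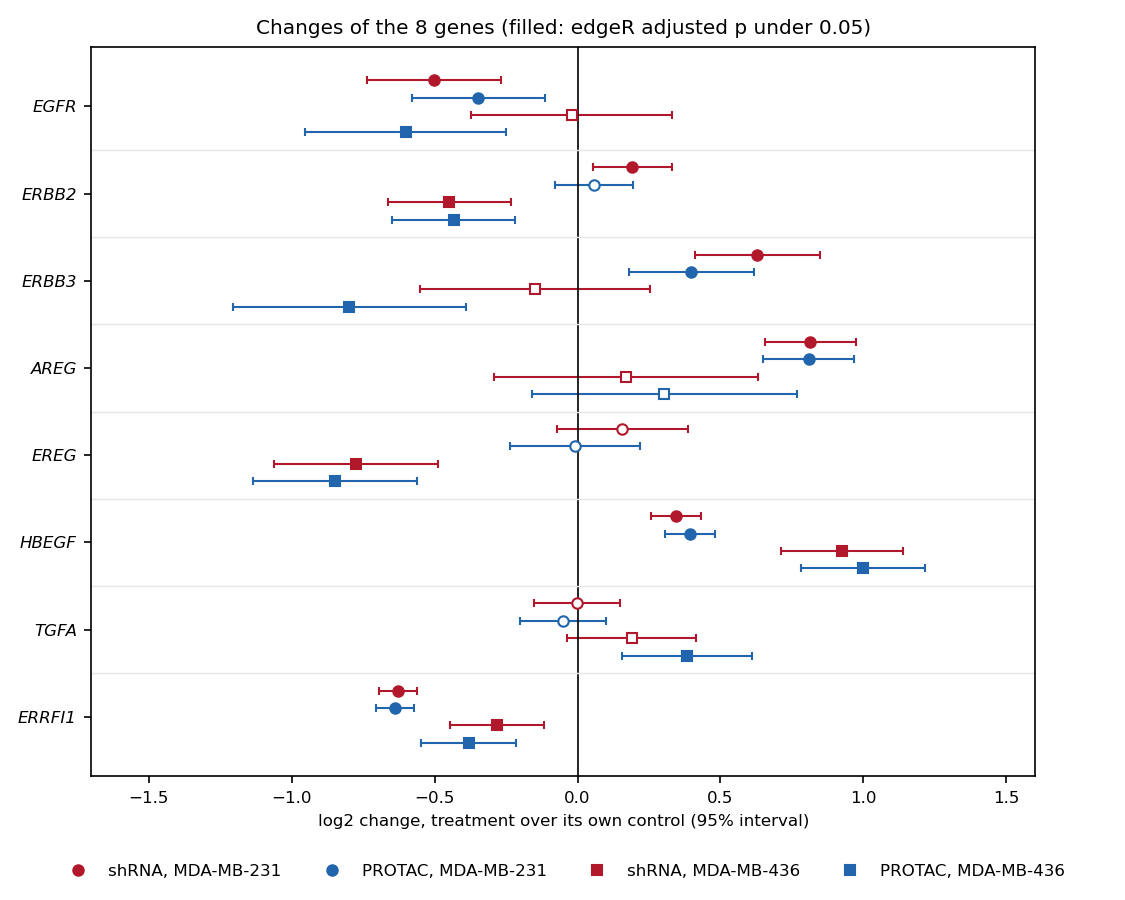
Log2 change of each gene, treatment over its own control, with 95% intervals from edgeR. Circles are MDA-MB-231 and squares MDA-MB-436, red is the MDM2 shRNA label and blue the PROTAC, and filled symbols passed an adjusted p of 0.05. HBEGF lies right of 0 and ERRFI1 left of 0 in all 4 comparisons, while ERBB3 and ERBB2 lie right of 0 in MDA-MB-231 and left of it in MDA-MB-436. On library totals alone, which are not drawn here, ERBB3 with the hairpin label in MDA-MB-436 stood at 0.03.

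The hairpin and the PROTAC were set against each other as the PROTAC change minus the hairpin change. None of the 8 genes passed in either line, where 1 gene of 20675 did in MDA-MB-231 (0.00484%) and 1 of 22663 in MDA-MB-436 (0.00441%), and 977 and 1230 genes had an unadjusted p under 0.05. ERRFI1 in MDA-MB-231 had a difference of -0.01 with a 95% interval of -0.11 to 0.08 on the log2 scale. HBEGF differed by 0.05 in MDA-MB-231 (interval -0.08 to 0.17), and AREG by -0.01 (interval -0.23 to 0.22). Larger gaps were not resolved in MDA-MB-436, where the intervals were wider. EGFR differed there by -0.58 (interval -1.08 to -0.08, unadjusted p = 0.0259, edgeR adjusted p = 0.905), and ERBB3 by -0.65 (interval -1.22 to -0.08, unadjusted p = 0.0293, edgeR adjusted p = 0.905). EGFR averaged 203 CPM with the PROTAC and 210 CPM under the hairpin label, against 307 CPM with DMSO and 215 CPM with the non-targeting shRNA, so its treated means lay closer together than its control means. ERBB3 averaged 1.53 CPM with the PROTAC and 2.05 CPM under the hairpin label, against 2.65 CPM with DMSO and 2.30 CPM with the non-targeting shRNA.

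The lines differed in how these genes responded, and the difference was tested as the change in MDA-MB-436 minus the change in MDA-MB-231. For 6 of 8 genes the hairpin change differed, 2 upward and 4 downward, where 9.94% and 9.77% of 24719 genes did (19.7% in all). For the PROTAC 6 of 8 differed, 3 upward and 3 downward, where 11.8% and 10.5% did (22.3% in all). HBEGF rose in both lines, by more on the log2 scale in MDA-MB-436, with differences of 0.56 ± 0.118 SE and 0.61 ± 0.118 SE (edgeR adjusted p of 0.0016 and 0.000662). ERRFI1 fell in both, by less in MDA-MB-436, with differences of 0.33 and 0.26 (edgeR adjusted p of 0.000976 and 0.00649). EREG changed in MDA-MB-436 and not detectably in MDA-MB-231, with differences of -0.95 ± 0.163 SE and -0.84 ± 0.163 SE (edgeR adjusted p of 0.000241 and 0.000685).

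The responses of the partner receptors also differed. ERBB3 differed between lines by -0.79 ± 0.197 SE with the hairpin and -1.19 ± 0.199 SE with the PROTAC (edgeR adjusted p of 0.00639 and 0.000171), and ERBB2 by -0.66 ± 0.115 SE and -0.49 ± 0.115 SE (edgeR adjusted p of 0.000305 and 0.00398). Within lines, ERBB3 passed upward in MDA-MB-231 with both agents and downward in MDA-MB-436 with the PROTAC. EGFR was not shown to differ, with 0.47 (95% interval 0.06 to 0.88, edgeR adjusted p = 0.111) and -0.25 (interval -0.66 to 0.16, edgeR adjusted p = 0.417). TGFA differed with the PROTAC by 0.44 (edgeR adjusted p = 0.00865) and not detectably with the hairpin, by 0.18 (edgeR adjusted p = 0.339). AREG, which rose in MDA-MB-231, differed with the hairpin by -0.66 ± 0.215 SE (edgeR adjusted p = 0.0341) and by -0.49 with the PROTAC (edgeR adjusted p = 0.116). The hairpin call of AREG was lost in 11 of 20 alternatives, among them 9 with a library left out: non-targeting replicates 1, 2 and 3 and MDM2 shRNA replicates 1 and 3 of MDA-MB-231, and non-targeting replicates 2 and 3 and MDM2 shRNA replicates 2 and 3 of MDA-MB-436, with adjusted p up to 0.127.

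**Figure D4:**
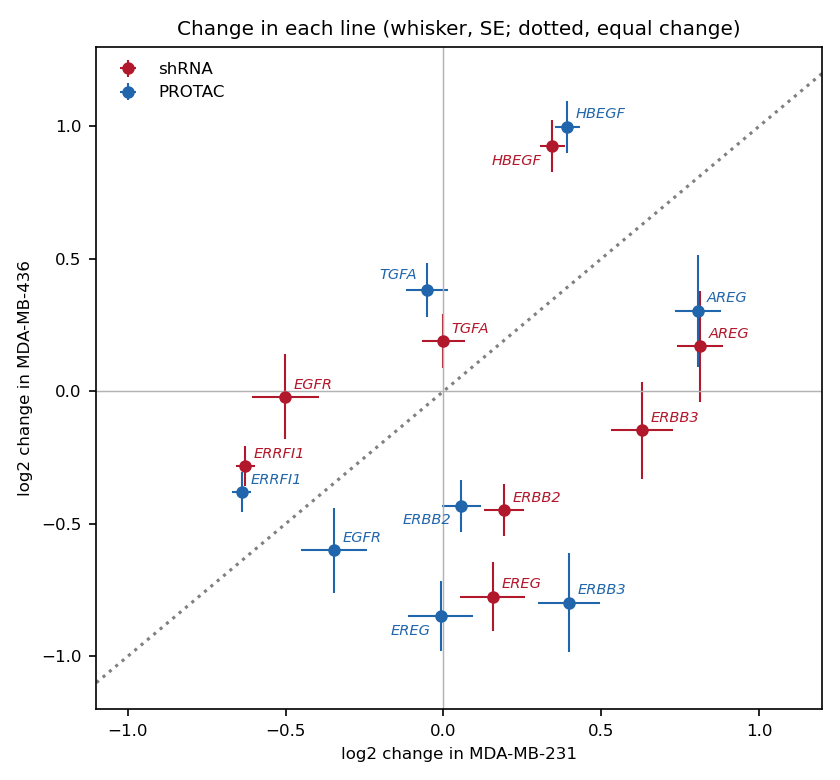
Log2 change in MDA-MB-436 (vertical axis) against that in MDA-MB-231 (horizontal axis) for the 8 genes, with SE whiskers, red for the MDM2 shRNA label and blue for the PROTAC. The dotted line marks equal change: HBEGF lies above it in the upper right, and EREG, ERBB2, ERBB3 and AREG lie below it with both agents. The 2 agents fall near each other for HBEGF, EREG, AREG and ERRFI1.

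Genes around the receptors were counted in 5 lists: other receptors and ligands, sheddases and their helpers, signal relay, attenuation and trafficking, and transcripts known to follow ERK activity. Of 80 such genes tested in MDA-MB-231, 13 rose and 21 fell with the hairpin label and 14 rose and 18 fell with the PROTAC. Of 81 tested in MDA-MB-436, 10 rose and 25 fell, and 10 rose and 31 fell. That is 42.5%, 40%, 43.2% and 50.6% called, beside 22.7%, 22.6%, 30.4% and 32.4% of all genes. The median log2 change (MDA-MB-231 hairpin and PROTAC, then MDA-MB-436 hairpin and PROTAC) was -0.29, -0.42, -0.91 and -0.52 for other receptors and ligands, and -0.34, -0.15, -0.16 and 0.08 for sheddases. It was 0.04, 0.09, -0.18 and -0.24 for signal relay, -0.03, -0.05, -0.16 and -0.17 for attenuation, and -0.25, -0.16, -0.20 and -0.16 for ERK outputs, against 0.01, -0.01, 0.04 and 0.04 over all genes tested. ERBB4, EPGN and CBLC were too low to test in either line, and NRG3 in MDA-MB-231.

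The other receptors and ligands were called about as often as all genes. Of 5 tested in MDA-MB-231, 0 rose and 1 fell with either agent (20%, beside 22.7% and 22.6% of all genes), and of 6 in MDA-MB-436, 0 rose and 2 fell with either (33.3%, beside 30.4% and 32.4%). The hairpin count in MDA-MB-231 was 2 without MDM2 shRNA replicate 2, with a filter at 1 CPM, with counts divided by 4, and with DESeq2 or limma voom. That in MDA-MB-436 was 1 when any 1 of its 6 libraries was left out, without a filter, on library totals alone and with the replicate block, and the PROTAC count there was 1 with its 6 libraries alone. The genes called were the neuregulins NRG1 and NRG2, whose products are ligands of ERBB3 and ERBB4. NRG1 fell in MDA-MB-436 to 6.18 ± 1.79 CPM under the hairpin label, against 15.7 ± 1.28 CPM with the non-targeting shRNA, and to 5.95 ± 0.37 CPM with the PROTAC, against 15.8 ± 1.26 CPM with DMSO (log2 -1.33 and -1.41). In MDA-MB-231 NRG1 had 72.1 ± 6.09 CPM, against 79.4 ± 4.74 CPM, and 71.8 ± 2.50 CPM, against 75.5 ± 3.23 CPM, and did not pass, and the lines differed by -1.2 and -1.33 (edgeR adjusted p of 9.32e-05 and 2.72e-05). NRG2 was 1.22 CPM in MDA-MB-231 labelled MDM2 shRNA, against 4.63 CPM, and 1.35 CPM with the PROTAC, against 4.66 CPM (log2 -1.93 and -1.79). In MDA-MB-436 it fell by 0.93 and 1.10 on the log2 scale. The hairpin call of NRG2 in MDA-MB-436 (edgeR adjusted p = 0.0324) ended when any 1 of its 6 libraries was left out, at adjusted p of 0.0596 to 0.112.

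The sheddases did not move as one. Of 10 genes tested, 2 rose and 5 fell with the hairpin label and 0 rose and 2 fell with the PROTAC in MDA-MB-231, and 3 rose and 3 fell with each agent in MDA-MB-436. In that order 70%, 20%, 60% and 60% were called, beside 22.7%, 22.6%, 30.4% and 32.4% of all genes. The PROTAC count in MDA-MB-231, 20% of the list where 22.6% of all genes were called, was 4 without PROTAC replicate 2, with a filter at 1 CPM or with counts divided by 4, and 5 with DESeq2 or limma voom. ADAM10, a sheddase of EGF-family precursors, fell in all 4 comparisons, by 0.40, 0.37, 0.64 and 0.84 on the log2 scale (MDA-MB-231 hairpin and PROTAC, then MDA-MB-436 hairpin and PROTAC). ADAM9 was 179 ± 17.2 CPM in MDA-MB-231 labelled MDM2 shRNA, against 245 ± 1.24 CPM, and also fell with the PROTAC there and in MDA-MB-436. These PROTAC calls of ADAM9 ended with all 24 libraries in 1 fit in MDA-MB-231 (edgeR adjusted p = 0.133), and without DMSO replicate 1 in MDA-MB-436 (edgeR adjusted p = 0.0625). ADAM12 fell in MDA-MB-436, to 5.86 and 4.58 CPM against 11.97 and 12.1 CPM, and was under 1 CPM in MDA-MB-231. ADAM17, the main sheddase of AREG, HBEGF and TGFA, was looked up after the values were seen: it rose in MDA-MB-436 to 147 ± 10.7 CPM, against 112 ± 1.76 CPM, and to 159 ± 12.8 CPM, against 126.5 ± 2.49 CPM. In MDA-MB-231 it fell with the hairpin label, to 60.05 ± 6.57 CPM against 73.4 ± 2.11 CPM (edgeR adjusted p = 0.0189), a call that ended without non-targeting replicate 2 or MDM2 shRNA replicate 2 or 3, at adjusted p of 0.0537, 0.0654 and 0.0636. The lines differed for ADAM17 by 0.69 and 0.50 (edgeR adjusted p of 9.36e-05 and 0.00177).

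Among adaptors and kinases downstream of the receptors, SHC1 and GAB2 went in opposite directions in the 2 lines. Of 26 tested, 5 rose and 2 fell with the hairpin label and 7 rose and 3 fell with the PROTAC in MDA-MB-231. The counts in MDA-MB-436 were 2 and 7, and 2 and 10. In the same order, 26.9%, 38.5%, 34.6% and 46.2% of this list were called, beside 22.7%, 22.6%, 30.4% and 32.4% of all genes. SHC1, the adaptor that docks on phosphorylated receptors, rose by 0.47 and 0.44 in MDA-MB-231 and fell by 0.81 and 0.89 in MDA-MB-436, and GAB2, a docking adaptor for PI3 kinase, fell by 0.82 and 0.72 in MDA-MB-231 and was 1.39 and 1.42 higher in MDA-MB-436 on the log2 scale. The lines differed for both (SHC1 -1.30 and -1.33, GAB2 2.19 and 2.14, edgeR adjusted p at most 1.28e-06). BRAF, a kinase upstream of ERK, rose by 0.78 and 0.56 in MDA-MB-436, to 89.5 and 90.3 CPM against 52.8 and 61.4 CPM, and was 30.8 and 30.6 CPM in MDA-MB-231, against 30.1 and 30.1 CPM. The kinase SRC rose by 0.35 and 0.26 in MDA-MB-231 (the PROTAC call ended with all 24 libraries in 1 fit, edgeR adjusted p = 0.0769), and the RAS exchange factor SOS2 by 0.30 and 0.38. In MDA-MB-436 SRC was 47.2 ± 0.865 CPM under the hairpin label, against 53.3 ± 3.66 CPM, and did not pass, and fell to 42.1 ± 8.39 CPM with the PROTAC, against 52.3 ± 2.4 CPM (edgeR adjusted p = 0.0373). That call ended without DMSO replicate 1, 2 or 3 or PROTAC replicate 1 or 3 (adjusted p of 0.0602 to 0.122), and the lines differed for SRC by -0.52 and -0.58 (edgeR adjusted p of 0.00923 and 0.00399). STAT3, a transcription factor that receptors can activate, fell by 0.40 and 0.54 in MDA-MB-436. In MDA-MB-231 STAT3 was 187 ± 7.39 CPM under the hairpin label, against 176 ± 4.55 CPM, and did not pass, and with the PROTAC it rose by 0.13 on the log2 scale (edgeR adjusted p = 0.04), a call that ended without DMSO replicate 1, 2 or 3 or PROTAC replicate 1 or 3 (adjusted p of 0.0926 to 0.132).

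Attenuators of the receptors, the group to which ERRFI1 belongs by function, included members that fell in all 4 comparisons. Of 27 tested, 4 rose and 7 fell, and 5 rose and 7 fell in MDA-MB-231, and 2 rose and 9 fell, and 1 rose and 12 fell in MDA-MB-436 (hairpin label, then PROTAC). The shares called were 40.7%, 44.4%, 40.7% and 48.1%, beside 22.7%, 22.6%, 30.4% and 32.4% of all genes. The receptor phosphatases PTPRJ and PTPRK, which can dephosphorylate EGFR, fell in every comparison, PTPRJ by 0.72, 0.75, 0.85 and 1.04 and PTPRK by 0.71, 0.56, 0.74 and 0.98 on the log2 scale. LRIG1, which promotes receptor breakdown, was 62.9 ± 2.28 CPM in MDA-MB-436 labelled MDM2 shRNA, against 94.8 ± 7.53 CPM, and 64.5 ± 7.77 CPM with the PROTAC, against 110 ± 1.05 CPM. SPRY4, a feedback inhibitor of the RAS to ERK cascade, fell in MDA-MB-231 to 94.4 ± 4.54 CPM, against 173 ± 5.37 CPM, and to 98.3 ± 1.51 CPM, against 170 ± 5.80 CPM. In MDA-MB-436 SPRY4 was 81.8 ± 4.08 CPM under the hairpin label, against 63.4 ± 0.723 CPM. This rise (edgeR adjusted p = 0.0307) ended when any 1 of the 6 libraries was left out, at adjusted p of 0.0548 to 0.112. With the PROTAC SPRY4 was 73.7 ± 17.2 CPM there, against 67.3 ± 1.71 CPM with DMSO, and the ranges overlapped. ERRFI1, PTPRJ and PTPRK thus fell in both lines, and SPRY4 in MDA-MB-231 only. LRIG1 was low in MDA-MB-231, at 4.16 ± 0.285 CPM under the hairpin label, against 4.83 ± 1.12 CPM. With the PROTAC it was 4.32 ± 0.199 CPM there, against 4.83 ± 0.211 CPM with DMSO. As counted above, 4 and 5 genes of the list rose in MDA-MB-231.

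Transcripts that are used as ERK outputs split. Of 12 tested, 2 rose and 6 fell, and 2 rose and 5 fell in MDA-MB-231, and 3 rose and 4 fell, and 4 rose and 4 fell in MDA-MB-436. That is 66.7%, 58.3%, 58.3% and 66.7% called, beside 22.7%, 22.6%, 30.4% and 32.4% of all genes. CCND1, the cyclin D1 gene, fell to 746 ± 40.4 CPM in MDA-MB-231 labelled MDM2 shRNA, against 1297 ± 24 CPM, and to 126 ± 1.11 CPM in MDA-MB-436, against 233 ± 11.9 CPM, and fell with the PROTAC by 0.86 and 0.95. PHLDA1, a pleckstrin-homology protein, fell by 0.82, 0.81, 0.51 and 0.43 on the log2 scale. EGR1, an immediate early transcription factor, went the other way in MDA-MB-436, to 87.1 ± 3.49 CPM, against 7.63 ± 0.632 CPM, and to 91.4 ± 7.25 CPM, against 8.05 ± 0.983 CPM. In MDA-MB-231 EGR1 rose by 0.44 and 0.35, and the lines differed by 3.07 and 3.16 (edgeR adjusted p of 5.38e-11 and 4.11e-11). The smaller EGR1 calls in MDA-MB-231 ended without non-targeting replicate 1 or MDM2 shRNA replicate 2 (adjusted p of 0.0541 and 0.0557), and without DMSO replicate 1 or 3 or PROTAC replicate 1 or 3 (adjusted p of 0.0861, 0.154, 0.105 and 0.149).

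**Figure D5:**
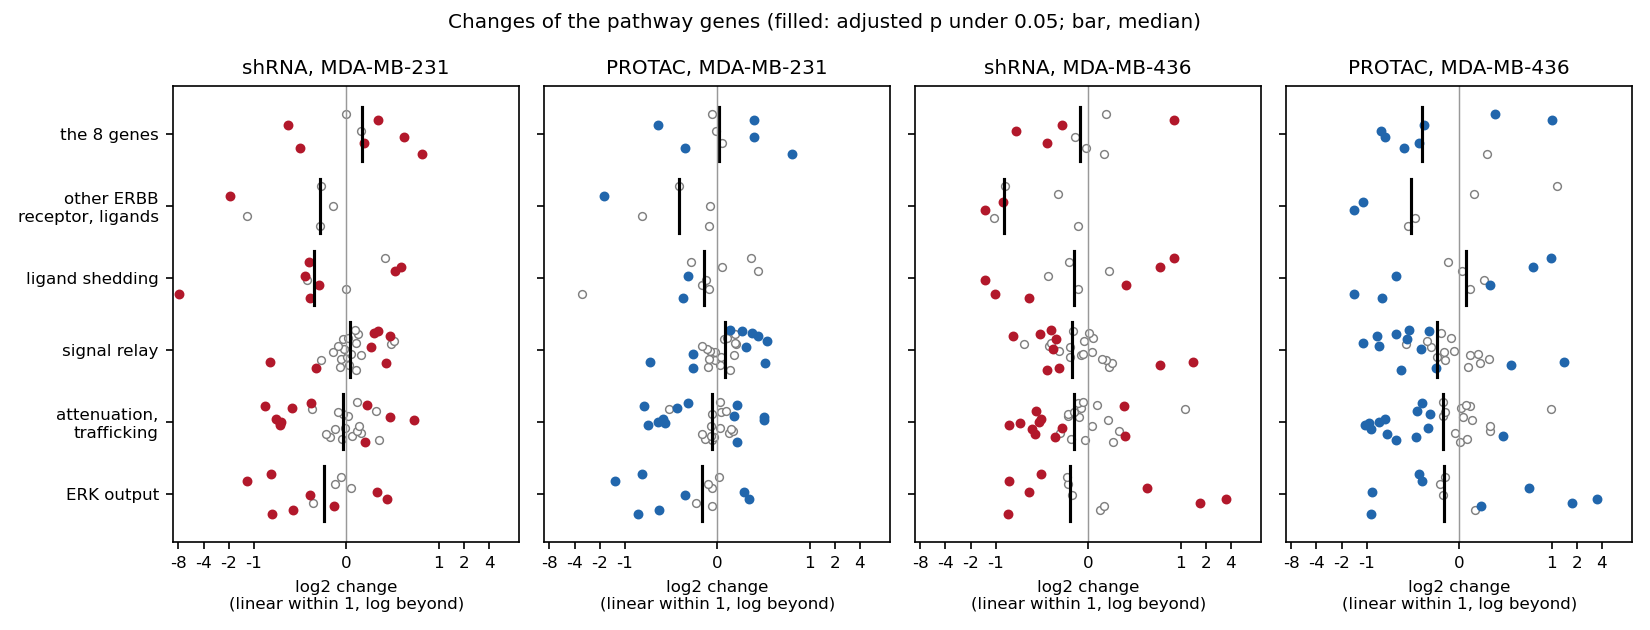
Log2 change (linear within 1 of 0, logarithmic beyond) of the 8 genes and of the 5 surrounding lists, 1 panel per comparison. Each point is a gene, filled where the edgeR adjusted p was under 0.05, and the black bar is the median of the list. The rightmost points of the ERK output row in MDA-MB-436 are EGR1 at 3.53 and 3.5, and the points left of -2 in the shedding row of MDA-MB-231 are ADAM12, which was under 1 CPM there.

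Genes whose level followed each of the 8 most closely were found by Pearson's r of log2(CPM + 0.5) over 24 libraries, with the mean of each line subtracted, among 13103 protein-coding genes. The libraries share line, treatment and group, and r is given as a description. HBEGF was tracked by HLA-E (r = 0.99), ODC1 (0.988) and CDT1 (0.987), and ERRFI1 by LTBP1 (0.975), GPC6 (0.972) and PHLDA1 (0.971). EREG was tracked by OGFRL1 (0.964) and PUS7L (0.954), and EGFR by MPDZ (0.952), PARP4 (0.919) and IGF2R (0.917). AREG was nearest to ISG15 (0.909), IRX3 (0.907) and BRI3BP (0.907), and ERBB2 to NOTCH1 (0.908), MATN2 (0.9) and MARCHF4 (0.896). The likeness was weaker for TGFA (NFAM1 0.858, TLE2 0.853, DHRS12 0.851) and ERBB3 (MYO1E 0.857, ANKRD13C 0.845, SHROOM3 0.844). Among the 8 themselves, HBEGF ran against EREG (r = -0.84) and AREG against ERRFI1 (r = -0.84), and ERRFI1 ran with EGFR (r = 0.71). Each r pools both lines, and the changes of EREG in MDA-MB-231 and of AREG in MDA-MB-436 did not pass the test. The neighbours EREG and AREG had r = -0.14.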

How the data were processed

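Total RNA was extracted with TRIzol and libraries were made with NEBNext Ultra II reagents and sequenced on an Illumina HiSeq, per the labels' protocols. The authors deposited 1 table of whole-number read counts per Ensembl gene for each library. The submitters' processing notes name cutadapt 2.4, HISAT2, StringTie, edgeR and GRCh38, without saying which step each did, so the counter behind the counts is not given in the sources used here. Poly(A) selection and strand are not stated. A count of 4 was 1.2 to 1.64 times as frequent as its neighbours in every library. The 8 genes had at least 55 counts in every library.

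Counts were fitted with edgeR 4.0.16 (R 4.3.3) by the quasi-likelihood test after TMM scaling and its filter on low counts, with the 12 libraries of a line in 1 fit. Differences between lines and between controls of the lines used all 24 libraries in 1 fit. P-values were Benjamini-Hochberg adjusted over all genes tested, at 0.05, and a 95% interval is the model's. CPM were computed on 1 TMM scale over 24 libraries, and levels were divided by exon length (GENCODE 29, GRCh38) before genes were compared. Coordinates of genes come from that annotation, which held 57055 of the 60675 IDs, and 56558 had a symbol. Promoters were matched by symbol to RefSeq entries (GRCh38.p14), and ERBB3 was not among them. The method was run on simulated counts with known changes, and the outcome is not reported here. Alternatives were DESeq2 1.42.0, limma 3.58.1 (voom), other scalings and filters, counts divided by 4, a replicate block, other sets of libraries, and each library left out.

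The 8 genes and the lists were chosen with earlier results of these data known. Named genes were the 8 genes, the 2 with the smallest adjusted p among the called genes of each list in each comparison, and the 3 protein-coding genes (mean of at least 1 CPM) most like each of the 8. ADAM17, the 5 genes of the closing section and the tests of DMSO against non-targeting libraries were chosen after values were seen. Some genes met by these rules are not reported here.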

Additional observations from a re-analysis of the deposited data

Results flagged for a closer look

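These effects differed between the lines by the test of the difference itself, the log2 change in MDA-MB-436 minus that in MDA-MB-231 (24-library edgeR fit, 3 libraries per group, adjusted over 24719 genes). With the MDM2 shRNA label, the differences were 0.56 for HBEGF and 0.33 for ERRFI1, and -0.66 for ERBB2, -0.79 for ERBB3, -0.66 for AREG and -0.95 for EREG. With the PROTAC, they were 0.61 for HBEGF, 0.44 for TGFA and 0.26 for ERRFI1, and -0.49 for ERBB2, -1.19 for ERBB3 and -0.84 for EREG.

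HBEGF was higher and ERRFI1 lower in every treated library of both lines than in its controls, so for these genes the lines differed in size and not in direction. EREG fell in MDA-MB-436 and its treated and control ranges overlapped in MDA-MB-231. The AREG difference rests on a gene with 113 to 543 counts per library in MDA-MB-436 and passed in 9 of 20 alternatives, the fewest of the 12. The line, its controls and its handling cannot be told apart in this design.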

How the results depend on the processing

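Of 22 changes of the 8 genes that passed in the treatment comparisons, 13 passed in every alternative: AREG, HBEGF and ERRFI1 with both agents and EGFR and ERBB3 with the hairpin label in MDA-MB-231, and EREG and HBEGF with both agents and ERBB3 with the PROTAC in MDA-MB-436. Of 352 alternative values of the 22, 34 missed the threshold and 0 changed sign, and all 8 control differences between the lines held. The cause of the changes given here was not tested. The number of the 8 genes called with the PROTAC in MDA-MB-231, 5, was 3 with all 24 libraries in 1 fit and 3 to 4 with a library left out (3 without DMSO replicate 2 or PROTAC replicate 1), and that in MDA-MB-436, 7, was 4 on library totals alone. Without TMM scaling, 68%, 65.6%, 72.8% and 70.9% of called genes were higher, in place of 48.8%, 49.1%, 52.5% and 53.4% (MDA-MB-231 hairpin and PROTAC, then MDA-MB-436), the median of all genes was 0.11, 0.08, 0.22 and 0.21, and 6 of the 22 calls were lost (EGFR in both PROTAC comparisons, at adjusted p of 0.104 and 0.0557, and ERBB2 and ERRFI1 in MDA-MB-436). The values that turned sign there had not passed: TGFA (0.099) with the hairpin and TGFA (0.031) and EREG (0.075) with the PROTAC in MDA-MB-231, and EGFR (0.158) and ERBB3 (0.031) with the hairpin in MDA-MB-436. TGFA was 0.001 with a filter at 1 CPM, and the agent difference of AREG in MDA-MB-231 was 0.002 with RLE factors and with DESeq2. With libraries left out, hairpin changes ran from -0.056 to 0.034 (TGFA, MDA-MB-231), from -0.07 to 0.05 (EGFR, MDA-MB-436) and from -0.003 to 0.338 (AREG, MDA-MB-436), and the PROTAC change of EREG in MDA-MB-231 from -0.061 to 0.068. Agent differences ran in MDA-MB-231 from -0.07 to 0.072 (AREG), -0.092 to 0.004 (TGFA) and -0.021 to 0.015 (ERRFI1), and in MDA-MB-436 from -0.042 to 0.152 (ERBB2), -0.042 to 0.299 (AREG) and -0.24 to 0.006 (EREG). ERBB2 with the hairpin in MDA-MB-231 missed the threshold in 10 of 16 alternatives and EGFR with the PROTAC there in 8 of 16. The AREG difference between lines was not past the threshold without a filter (adjusted p = 0.0908), and with DESeq2 the PROTAC one was (adjusted p = 0.0378).

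With the replicate block, 4274, 4302, 6530 and 6877 genes were called, in place of 4694, 4668, 6896 and 7334, and 5, 4, 4 and 7 of the 8 genes. The calls of ERBB2 with the hairpin (adjusted p = 0.0648) and EGFR with the PROTAC (adjusted p = 0.069) in MDA-MB-231 were lost. Same-numbered libraries of a line had deviations from their group means that correlated at -0.05 to 0.06 and the labels name no shared batch, so the numbers were not taken to pair the libraries. Genes of low count set the limit: ERBB3 and AREG in MDA-MB-436 had 55 to 543 counts per library.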

Other observations

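Values of 5 further feedback and output genes of the RAS to ERK cascade, chosen after their values were seen, are given here. FOSL1, a subunit of the AP-1 transcription factor, fell in all 4 comparisons, to 144 ± 2.92 CPM in MDA-MB-231 libraries labelled MDM2 shRNA, against 336 ± 9.7 CPM with the non-targeting shRNA, and to 143 ± 3.11 CPM with the PROTAC, against 352 ± 34.3 CPM with DMSO (SD, n = 3 each). In MDA-MB-436 it was 152 ± 11.4 CPM, against 278 ± 39.4 CPM, and 158 ± 23.6 CPM, against 208.5 ± 24.9 CPM, a PROTAC call (edgeR adjusted p = 0.0324) that ended at adjusted p of 0.147, 0.0646, 0.0985 and 0.0874 without DMSO replicate 1 or 2 or PROTAC replicate 2 or 3. DUSP4, a phosphatase of ERK, fell in MDA-MB-231 to 626 ± 10.4 CPM, against 933 ± 22.8 CPM, and to 617 ± 10.3 CPM, against 953 ± 20.7 CPM, as did SPRY2, an inhibitor of the cascade, by 0.58 and 0.44 on the log2 scale. In MDA-MB-436 both had changes that did not pass, between -0.08 and 0.17. DUSP6, another ERK phosphatase, was 6.02 ± 0.369 CPM in MDA-MB-436 labelled MDM2 shRNA, against 1.86 ± 0.153 CPM, and 5.54 ± 0.933 CPM with the PROTAC, against 1.65 ± 0.401 CPM, and the transcription factor ETV4 rose there by 0.63 and 0.75. In MDA-MB-231 neither passed. The change in MDA-MB-436 minus that in MDA-MB-231 was 2.04 and 1.98 for DUSP6, 0.68 and 0.81 for DUSP4, 0.49 and 0.46 for SPRY2 and 0.56 and 0.81 for ETV4 (hairpin, then PROTAC, edgeR adjusted p at most 0.00286). For FOSL1 it was 0.35 with the hairpin (edgeR adjusted p = 0.122) and 0.90 with the PROTAC (edgeR adjusted p = 0.000159).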
